A study of Mus musculus with 2 samples.

Results

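The 10 Wnt ligand genes Wnt2, Wnt2b, Wnt3, Wnt3a, Wnt5a, Wnt5b, Wnt6, Wnt7b, Wnt8a and Wnt11 were described across the cell classes of the gastrulating mouse embryo, for their nuclear RNA and for the accessibility of their chromatin. The genes were taken by symbol, 10 of 32285 genes measured, together with every accessibility peak within 50 kb of their transcription starts, 265 of 229480 peaks. Each nucleus carried both assays under 1 barcode (a single-nucleus multiome), and all 15341 deposited barcodes were shared by the RNA and the accessibility library. Mouse embryos of embryonic day 7.0, the stage at which the primitive streak forms mesoderm and endoderm from the epiblast, had been pooled before their nuclei were isolated, so no nucleus could be traced to an embryo. The 2 groups, nuclear RNA and accessible chromatin, held 1 library each, and nothing below has a replicate check. The labels disagreed with one another. E7.0 embryos were named by title, age entry and protocol. The entries for tissue and source gave a section of the small intestine for the RNA library and the distal colon for the accessibility library, the cell type was entered as goblet cells, and the strain as RedMUC298trTg. No treatment or untreated control was listed.

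Wnt proteins are secreted, lipid-modified glycoproteins. Porcupine attaches the lipid, Wntless carries the protein to the cell surface, and Frizzled receptors with LRP5 or LRP6 or with ROR and RYK co-receptors receive it. In the canonical branch β-catenin then joins TCF/LEF factors on target genes such as Axin2 and T, and in the mouse gastrula this branch is needed to form the primitive streak. Wnt3, Wnt3a, Wnt8a, Wnt2 and Wnt2b are usually placed in that branch, and Wnt5a, Wnt5b and Wnt11 are best known for β-catenin-independent signalling in cell movement.

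After the limits on depth and the removal of called doublets, 12796 nuclei remained, with a median of 10471 unique molecular identifiers (UMIs, counted RNA molecules) and 17350 peak counts. Nuclei were grouped by accessibility alone, with the 265 peaks around the ligand genes left out, and the groups were named from RNA marker lists without a Wnt gene, so that neither readout of the ligands defined a class. Of 19 clusters, 16 were named into 10 classes, each to be read as "like" that cell type: epiblast (3731 nuclei), visceral endoderm (1640), embryonic mesoderm (1482), primitive streak (1053), extraembryonic ectoderm (975), a class of node, definitive endoderm and anterior streak markers (953, called the anterior class below), ectoplacental cone with giant cell (630), extraembryonic mesoderm (381), haemato-endothelial progenitor (299) and parietal endoderm (26). The other 1626 nuclei stayed unnamed. Summed marker RNA was higher in each class than in all other nuclei, from 2.60-fold for the epiblast list to 40.5-fold for the parietal endoderm list. The same lists named the classes, so a higher sum was built in and is no separate support. Single markers higher in their class ranged from 7 of 7 for the primitive streak list to 7 of 10 for the ectoplacental cone list. They were 7 of 9 for extraembryonic mesoderm and 8 of 10 for extraembryonic ectoderm. The ectoplacental cone-like cluster also carried extraembryonic ectoderm markers, with a mean log2 fold of 1.53 against 1.83 for its own list. Over all kept nuclei the goblet genes Muc2, Tff3, Clca1, Fcgbp and Zg16 had 17, 6, 5, 39 and 36 UMIs. Of the other genes on that list, which are not goblet-specific, Lgals4 had 267, Cdx1 165 and Vil1 3994. Of the clusters, 5 with 2555 nuclei had medians under 5000 peak counts. Median UMIs per nucleus in the named classes lay between 9855 (anterior class) and 12418 (ectoplacental cone-like). RNA is given as CPM, the UMIs of a gene per 1000000 gene UMIs of the class, and accessibility as CPM of peaks, the counts of a peak per 1000000 peak counts. Values in brackets after a level, ratio, share or fold are exact 95% intervals, which cover counting error only. A fold compares a class with all other kept nuclei. The median gene lay below 1-fold by over 0.1 on the log2 scale in 5 classes: parietal endoderm (-0.51), visceral endoderm (-0.22), extraembryonic ectoderm (-0.20), ectoplacental cone (-0.15) and haemato-endothelial progenitor (-0.11).

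RefSeq promoter sequences (GRCm38.p6, the assembly that mm10 is based on) were found for 7 of the 10 genes; Wnt5a, Wnt7b and Wnt8a were not in the table. Below are the 250 bases upstream of the start for 4 genes, written 5′ to 3′ on the strand of the gene. Wnt2 and Wnt6 are shown because their promoter peaks were highest in the class with most RNA, Wnt3a and Wnt11 because theirs were not. Capitals mark matches on either strand to the searched words, and adjoining or overlapping matches run together.
Wnt2, chr6:18030446-18030695, minus strand: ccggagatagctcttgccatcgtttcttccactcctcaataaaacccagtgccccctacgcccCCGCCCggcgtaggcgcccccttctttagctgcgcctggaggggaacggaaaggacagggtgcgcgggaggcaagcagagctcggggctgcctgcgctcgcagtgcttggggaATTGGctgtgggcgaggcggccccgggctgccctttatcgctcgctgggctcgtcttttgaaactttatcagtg
Wnt6, chr1:74771642-74771891, plus strand: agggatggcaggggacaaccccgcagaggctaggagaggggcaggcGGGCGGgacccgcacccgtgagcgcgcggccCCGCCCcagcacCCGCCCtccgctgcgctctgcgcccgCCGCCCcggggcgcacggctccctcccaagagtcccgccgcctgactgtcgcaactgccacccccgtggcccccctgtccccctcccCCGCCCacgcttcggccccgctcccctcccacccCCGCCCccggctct
Wnt3a, chr11:59290752-59291001, minus strand: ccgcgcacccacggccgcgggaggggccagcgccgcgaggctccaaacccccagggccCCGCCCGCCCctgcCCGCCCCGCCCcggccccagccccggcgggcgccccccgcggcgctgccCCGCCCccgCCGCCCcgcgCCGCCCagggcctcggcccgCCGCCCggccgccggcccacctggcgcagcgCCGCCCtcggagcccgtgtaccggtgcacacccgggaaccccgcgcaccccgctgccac
Wnt11, upstream start, chr7:98834862-98835111, plus strand: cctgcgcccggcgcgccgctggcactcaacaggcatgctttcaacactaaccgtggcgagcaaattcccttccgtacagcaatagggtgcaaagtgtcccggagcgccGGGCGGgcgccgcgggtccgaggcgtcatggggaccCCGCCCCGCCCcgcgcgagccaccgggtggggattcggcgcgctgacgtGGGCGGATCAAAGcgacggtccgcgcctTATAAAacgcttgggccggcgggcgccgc
The words searched included GGGCGG, bound by Sp1-type factors. They also included CCAAT, the word of the factor NF-Y, and TATAAA, that of the TATA-binding protein. For factors of the TCF/LEF family the word was CTTTGAT, and a related word shared with SOX factors was CTTTGTT. T-box proteins were represented by TCACACC and proteins of the GATA family by AGATAA. For SOX proteins a further word was ACAATGG. The E-box of helix-loop-helix proteins was searched as CAGCTG. The first word, GGGCGG, occurs in 32.7% of the 32851 promoters of the same length in the table, CCAAT in 33.9%, TATAAA in 12.4% and CTTTGAT in 3.21%. Wnt3a held 9 matches to GGGCGG and was 87.6% G or C, against a median of 52.4% over the table, and Wnt6 held 6 at 79.6%. Wnt2 held 1 GGGCGG and 1 CCAAT at 63.6% G or C. The upstream start of Wnt11 held 4 GGGCGG, 1 CTTTGAT and 1 TATAAA. Wnt2b and Wnt3, not printed, held 3 and 2 GGGCGG and 1 CCAAT each. No T-box, GATA, SOX, E-box or CTTTGTT word was present in any of the 10 windows of the 7 genes. These are letter matches, not binding sites.

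All 10 ligand genes had RNA at least 2-fold higher in 1 or more classes than in all other nuclei, against 47.8% of the 17686 genes with at least 50 UMIs. Embryonic mesoderm-like nuclei had 5 ligands past 2-fold (Wnt2, Wnt2b, Wnt3, Wnt5a and Wnt5b; 6.38% of all genes), primitive streak-like nuclei 4 (Wnt3, Wnt3a, Wnt5b and Wnt8a; 2.96%) and extraembryonic mesoderm-like nuclei 3 (Wnt2, Wnt5a and Wnt5b; 6.59%). The extraembryonic ectoderm-like (6.87%) and the ectoplacental cone-like class (6.39%) each had 2, in both cases Wnt6 and Wnt7b. Wnt11 alone was past 2-fold in the anterior class (5.55%) and in the parietal endoderm-like class (10.4%). At 3-fold, 9 of the 10 passed in some class (26.7% of all genes). No ligand was 2-fold higher in epiblast-like (8.84%), visceral endoderm-like (10.5%) or haemato-endothelial progenitor-like nuclei (7.07%). In epiblast-like nuclei 6 of the 10 were 2-fold lower than elsewhere, beside 13.1% of all genes, and in visceral endoderm-like nuclei 7, beside 24.4%. It was 2 in embryonic mesoderm-like (15.2%), 3 in streak-like (12.3%), 3 in extraembryonic mesoderm-like (16.2%), 4 in haemato-endothelial progenitor-like (18.0%) and 4 in anterior-class nuclei (11.0%). In the 26 parietal endoderm-like nuclei 9 were lower (40.4%), 4 of them with 0 UMIs. These calls rest on point values, and the class has too few UMIs to show a 2-fold decrease for genes this rare. A limit of 3 counts is 8.87 CPM there, above the level elsewhere of Wnt2 (6.10) and Wnt2b (4.01). The upper bound of the fold was 1.79 for Wnt2, 2.73 for Wnt2b and 0.844 for Wnt3. In the extraembryonic ectoderm-like class the 7 ligands other than Wnt6, Wnt7b and Wnt11 were 2-fold lower (24.7% of all genes), and the same 7 were in the ectoplacental cone-like class (25.7%).

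**Figure D1:**
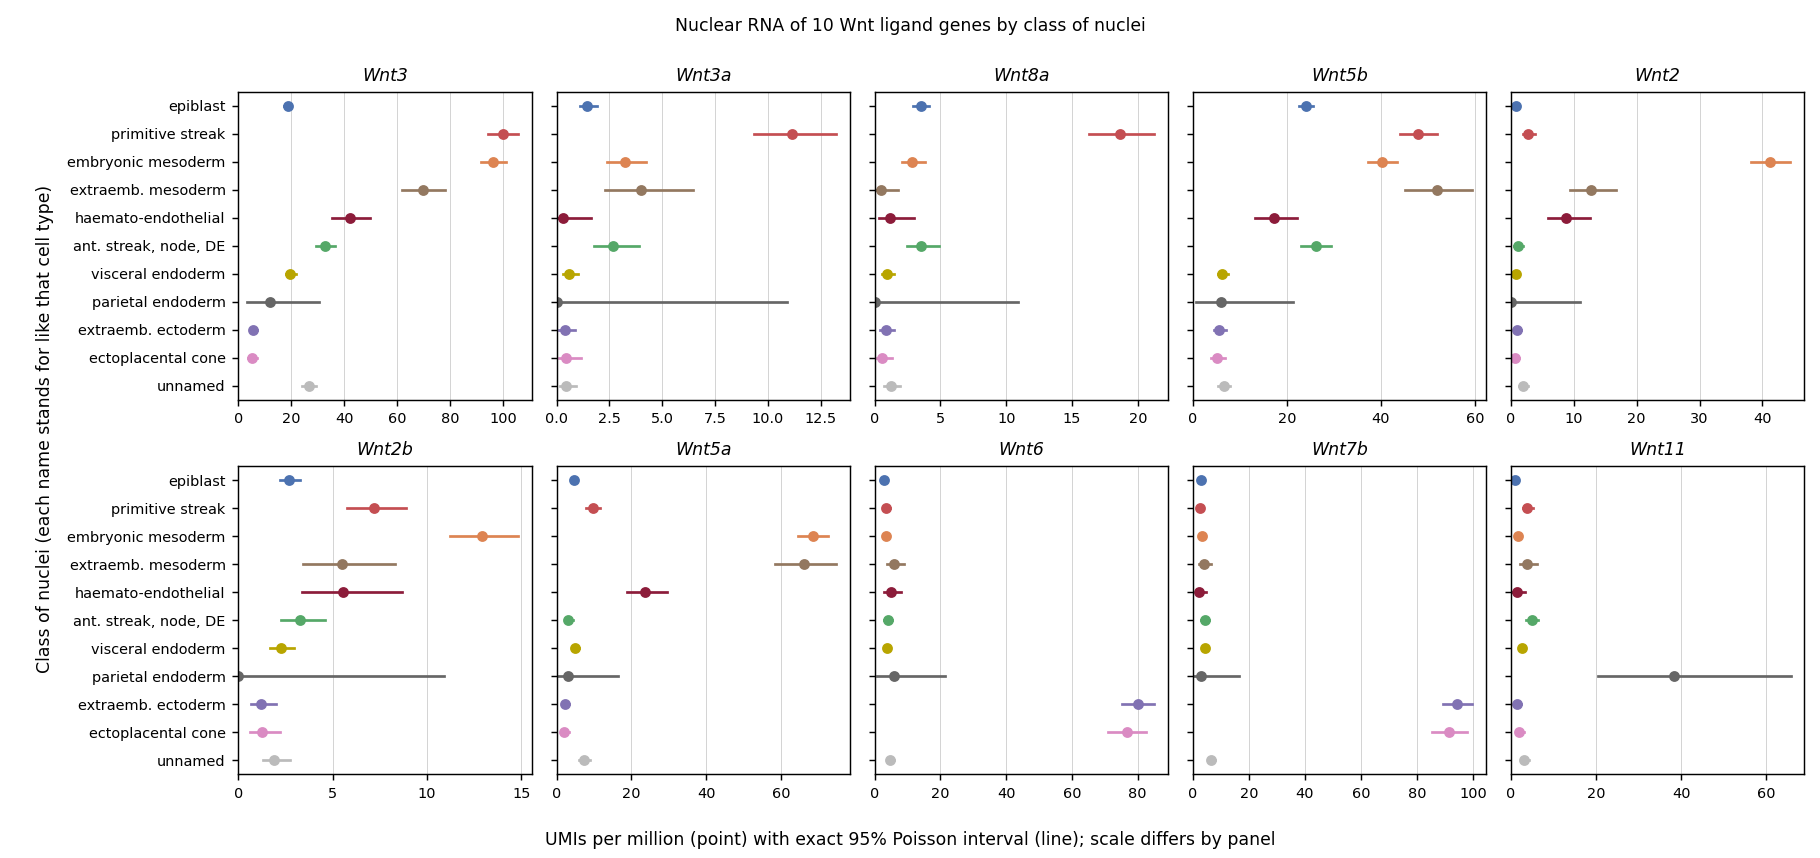
Nuclear RNA of each ligand gene (x axis, UMIs per 1000000 gene UMIs, scale set per panel) in 10 named classes and the unnamed nuclei (y axis), with points for the class sum and lines for the exact 95% Poisson interval. Wnt3, Wnt3a and Wnt8a peak in primitive streak-like nuclei or beside them, Wnt2, Wnt2b and Wnt5a in mesoderm-like nuclei, and Wnt6 and Wnt7b stand far to the right in the 2 trophoblast-like classes.

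Wnt3, the ligand without which the mouse embryo forms no primitive streak, was measured with 5223 UMIs. Its RNA was 99.9 CPM in primitive streak-like nuclei (94.3 to 106) and 96.4 CPM in embryonic mesoderm-like nuclei (91.6 to 101). The ratio of these 2 classes, 1.04 (0.961 to 1.12), included 1. Extraembryonic mesoderm-like nuclei followed at 69.6 CPM, haemato-endothelial progenitor-like at 42.1 and the anterior class at 32.8, each step larger than counting error. Visceral endoderm-like nuclei had 19.7 CPM, epiblast-like nuclei 18.6, parietal endoderm-like nuclei 11.8, extraembryonic ectoderm-like nuclei 5.62 and ectoplacental cone-like nuclei 5.18. A UMI of Wnt3 was found in 59.0% of primitive streak-like nuclei and in 6.56% of extraembryonic ectoderm-like nuclei. With every nucleus thinned to 5000 UMIs the shares were 36.9% and 2.31%. Within the epiblast-like class, 3 clusters had 12.8, 13.0 and 18.7 CPM of Wnt3 and the fourth, of 740 nuclei with a median of only 2764 peak counts, had 40.4 (35.3 to 46.0). The annotated span of Wnt3 overlaps that of Wnt9b, and whether counting used the strand was not given, so reads of the pair may not be fully separated.

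Wnt3a, needed for the later streak and the paraxial mesoderm it yields, was rarer, with 316 UMIs. Its RNA was 11.1 CPM in primitive streak-like nuclei (9.33 to 13.2), 8.15-fold above all other nuclei (6.47 to 10.2). Extraembryonic mesoderm-like nuclei had 3.98 CPM, embryonic mesoderm-like nuclei 3.22 and the anterior class 2.67, and neighbours in that order did not differ beyond counting error. Epiblast-like nuclei had 1.46 CPM, visceral endoderm-like 0.582, ectoplacental cone-like 0.450, extraembryonic ectoderm-like 0.380 and haemato-endothelial progenitor-like 0.293. In parietal endoderm-like nuclei 0 UMIs were counted, which allows up to 8.87 CPM at a limit of 3 counts and 10.9 CPM at the exact 95% bound. A UMI was seen in 9.78% of primitive streak-like nuclei and 0.410% of extraembryonic ectoderm-like nuclei, or 4.22% and 0.116% after thinning.

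Wnt8a, a ligand of the posterior epiblast and early streak, had 505 UMIs, 44.0% of them in the primitive streak-like class. Its RNA was 18.6 CPM there (16.2 to 21.2), an 8.80-fold difference (7.34 to 10.5), and was 5.24-fold above the next class (3.67 to 7.67). The anterior class at 3.55 CPM, epiblast-like nuclei at 3.51 and embryonic mesoderm-like nuclei at 2.85 did not differ from one another beyond counting error. The haemato-endothelial progenitor-like class had 1.17 CPM, visceral endoderm-like nuclei 0.940, extraembryonic ectoderm-like 0.836, ectoplacental cone-like 0.563 and extraembryonic mesoderm-like 0.497 (2 UMIs), and parietal endoderm-like nuclei had 0 UMIs. A UMI was present in 17.9% of primitive streak-like and 1.03% of extraembryonic ectoderm-like nuclei, and in 7.75% and 0.463% after thinning. Wnt8a thus differed between streak-like and embryonic mesoderm-like nuclei, for which the Wnt3 ratio included 1.

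The 3 streak ligands were next compared, within a class, between nuclei with and without a UMI of T (Brachyury, the T-box factor of the streak and nascent mesoderm and itself a Wnt target). T was a marker used to name the classes, so this is a description. A T UMI was present in 10.1% of epiblast-like, 54.8% of primitive streak-like and 37.9% of embryonic mesoderm-like nuclei. Nuclei with one were deeper, at medians of 11358 against 9884 UMIs, 11115 against 9578 and 11786 against 9501, and the part of depth in the ratios beyond CPM was not tested. Wnt3a was 6.44 CPM in epiblast-like nuclei with T and 0.775 without, a ratio of 8.31 (4.80 to 14.5). That class pools 4 clusters, with Wnt3a at 0.658, 1.13, 1.30 and 4.11 CPM. How far its ratios come from differences between these clusters was not tested. The ratio for Wnt3a was 3.13 (1.99 to 5.09) in streak-like and 5.93 (2.85 to 13.8) in mesoderm-like nuclei. For Wnt3 the ratio was 2.84 (2.41 to 3.35), 1.40 (1.24 to 1.58) and 1.30 (1.17 to 1.44) in the same order. For Wnt8a it was 2.08 (1.35 to 3.12), 1.09 (0.825 to 1.44) and 2.33 (1.23 to 4.57). Wnt3a was thus higher beside T in all 3 classes, whereas Wnt8a inside the streak-like class was at nearly the same level, 19.2 CPM with T and 17.7 without. Among the other ligands in mesoderm-like nuclei, Wnt5b had a ratio of 1.60 (1.37 to 1.87) and Wnt2 of 0.993 (0.849 to 1.16). Wnt5a was higher beside T in epiblast-like (1.61, 1.07 to 2.37) and streak-like nuclei (2.04, 1.33 to 3.22) and lower in mesoderm-like nuclei (0.850, 0.752 to 0.959). The Wnt11 ratio was 2.57 (1.16 to 5.25) in epiblast-like, 0.442 (0.230 to 0.828) in streak-like and 1.15 (0.499 to 2.64) in mesoderm-like nuclei, so its direction also differed between classes.

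**Figure D2:**
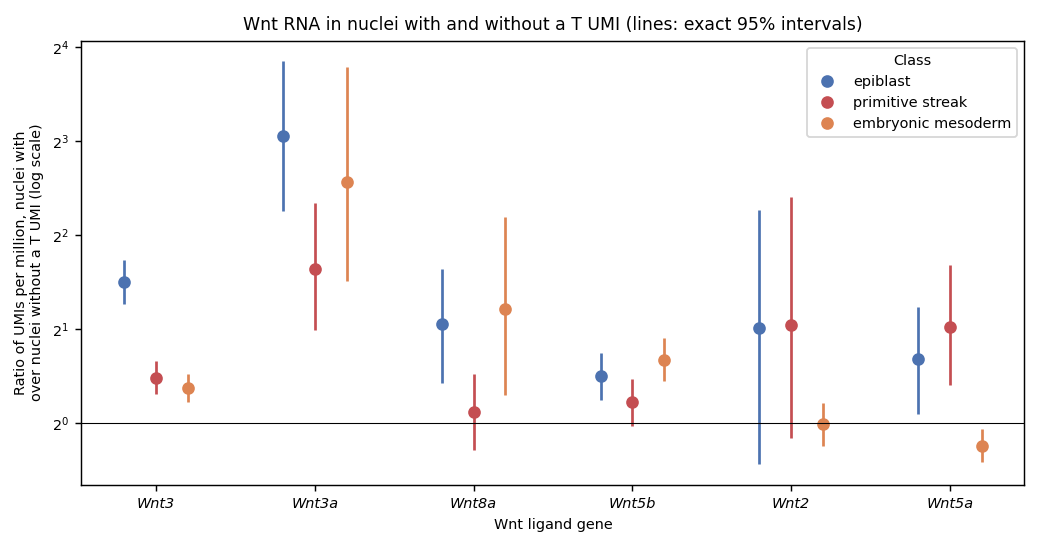
Ratio of RNA (CPM) in nuclei with a T UMI over nuclei without one (y axis, log scale) for 6 ligand genes (x axis) in 3 classes, with points for the ratio and lines for exact 95% intervals. The Wnt3a points, between 3.13 and 8.31, lie highest, while Wnt8a in primitive streak-like nuclei and Wnt2 in embryonic mesoderm-like nuclei lie at the line for equal levels.

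Wnt2, later known from heart and lung mesoderm, had 887 UMIs, and 75.1% of them lay in embryonic mesoderm-like nuclei. Its RNA was 41.2 CPM there (38.1 to 44.5), a fold of 24.2 (20.7 to 28.3). Extraembryonic mesoderm-like nuclei had 12.7 CPM and haemato-endothelial progenitor-like nuclei 8.78, a pair whose ratio of 1.44 (0.902 to 2.35) included 1. Primitive streak-like nuclei had 2.68 CPM, the anterior class 1.09, extraembryonic ectoderm-like 0.912, visceral endoderm-like 0.851, epiblast-like 0.807 and ectoplacental cone-like 0.563, and 0 UMIs were counted in parietal endoderm-like nuclei. A UMI of Wnt2 was present in 28.9% of embryonic mesoderm-like and 0.804% of epiblast-like nuclei, or 18.2% and 0.357% after thinning. Both clusters of the mesoderm-like class carried it, at 41.9 and 39.0 CPM.

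Wnt2b, a close relative of Wnt2, had 583 UMIs and a flatter profile. Embryonic mesoderm-like nuclei led with 12.9 CPM (11.2 to 14.8), 4.48-fold above all others (3.76 to 5.32). Primitive streak-like nuclei followed at 7.21 CPM, lower by a ratio of 1.79 (1.39 to 2.33). The haemato-endothelial progenitor-like class at 5.56, the extraembryonic mesoderm-like class at 5.47, the anterior class at 3.26 and epiblast-like nuclei at 2.70 CPM formed an order in which no neighbours differed beyond counting error. Visceral endoderm-like nuclei had 2.24 CPM and the 2 trophoblast-like classes 1.22 and 1.24. Reads shared with the overlapping gene St7l cannot be told apart without strand.

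Wnt5a, the ligand of axis elongation, had 2059 UMIs and was carried by the mesoderm-like classes. Embryonic mesoderm-like nuclei had 68.4 CPM (64.4 to 72.5) and extraembryonic mesoderm-like nuclei 66.1 CPM (58.4 to 74.6), a ratio of 1.03 (0.904 to 1.19). Haemato-endothelial progenitor-like nuclei had 23.7 CPM and primitive streak-like nuclei 9.64. Visceral endoderm-like nuclei had 5.06 CPM, epiblast-like 4.56, the anterior class 3.16, parietal endoderm-like 2.96 (1 UMI), extraembryonic ectoderm-like 2.36 and ectoplacental cone-like 2.03. A UMI was found in 41.3% and 41.2% of nuclei in the 2 leading classes and in 2.38% of ectoplacental cone-like nuclei, and after thinning in 27.6%, 25.5% and 0.657%. Wnt5a thus differed between the streak-like and the embryonic mesoderm-like class, whose intervals lay far apart, and the Wnt3 ratio of these classes included 1.

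Wnt5b, a paralog of Wnt5a, was spread more widely, with 3072 UMIs. Extraembryonic mesoderm-like nuclei had 52.0 CPM (45.1 to 59.5) and primitive streak-like nuclei 47.9 (44.1 to 52.0), a ratio of 1.08 (0.920 to 1.27). Embryonic mesoderm-like nuclei had 40.2 CPM. The anterior class at 26.2 and epiblast-like nuclei at 24.0 CPM did not differ beyond counting error. Haemato-endothelial progenitor-like nuclei had 17.3 CPM, visceral endoderm-like 6.27, parietal endoderm-like 5.92, extraembryonic ectoderm-like 5.62 and ectoplacental cone-like 5.18. Among the 10 ligand genes, Wnt5b had the smallest fold in its leading class, 2.57 (2.22 to 2.96). No cluster took the name extraembryonic mesoderm with coarser clusters, with classes built from RNA or with doublet calls kept, so this fold has no value there. A UMI was seen in 34.1% of extraembryonic mesoderm-like, 18.4% of epiblast-like and 6.35% of ectoplacental cone-like nuclei.

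Wnt11, known for convergent extension movements and heart formation, had 339 UMIs and no nucleus with more than 2. Parietal endoderm-like nuclei led at 38.4 CPM (20.5 to 65.7), from 13 UMIs in 9 of 26 nuclei. The anterior class had 4.84 CPM (3.58 to 6.40), a fold of 2.26 (1.64 to 3.07), and primitive streak-like nuclei 3.86, extraembryonic mesoderm-like 3.73 and visceral endoderm-like 2.51, neighbours within counting error. The ectoplacental cone-like class had 1.91 CPM, embryonic mesoderm-like nuclei 1.67, extraembryonic ectoderm-like 1.52, haemato-endothelial progenitor-like 1.46 and epiblast-like 1.06. The fold in parietal endoderm-like nuclei was 17.1 and depended on how the class was drawn. It was 17.2 with at least 2000 UMIs and peak counts per nucleus and 16.8 without the clusters of low peak counts. It was 3.55 with finer clusters and 5.46 with classes built from RNA, where that class still led. With doublet calls kept it was 1.93 and with coarser clusters 2.08, in clusters of 578 and 440 nuclei under that name, and the anterior class led in both.

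Wnt6 and Wnt7b were the ligands of the trophoblast-like classes; Wnt7b is known for its part in the fusion of chorion and allantois. Wnt6 RNA was 80.1 CPM in extraembryonic ectoderm-like nuclei (75.3 to 85.1) and 76.7 in ectoplacental cone-like nuclei (71.0 to 82.6), which held 48.1% and 31.1% of its 2190 UMIs. The ratio of the 2 classes was 1.04 (0.948 to 1.15), and the next class, extraembryonic mesoderm-like, was 12.8-fold lower (8.56 to 20.2) at 5.97 CPM. The other 7 classes lay between 2.93 (epiblast-like) and 5.92 CPM. Wnt7b RNA was 94.4 CPM (89.2 to 99.8) and 91.5 CPM (85.3 to 98.0) in the same 2 classes, a ratio of 1.03 (0.943 to 1.13), and 49.1% and 32.1% of its 2530 UMIs lay there. The next class, visceral endoderm-like, was 20.9-fold lower (16.9 to 26.0) at 4.39 CPM, and the others lay between 2.34 and 4.25 CPM. A UMI of Wnt7b was present in 59.6% of extraembryonic ectoderm-like and 3.06% of epiblast-like nuclei, and after thinning in 33.6% and 1.49%. For Wnt6 the shares were 53.3% and 2.81%, and 30.6% and 1.49% after thinning. The source of the low level elsewhere was not tested; for Wnt7b it was 6.51 CPM in the unnamed nuclei (5.31 to 7.90). Within extraembryonic ectoderm-like nuclei at 5000 UMIs, 35.6% of nuclei with a Wnt6 UMI also had one of Wnt7b (29.8 to 41.7), against 32.7% of those without (28.9 to 36.6), so detection of one gene went with little difference in detection of the other.

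Over the 18 clusters of at least 50 nuclei, the RNA profiles of Wnt6 and Wnt7b had a Pearson coefficient of 0.95 on log2(CPM + 1), Wnt2 and Wnt5a 0.94 and Wnt2b and Wnt3 0.87, and Wnt3 and Wnt7b were most opposed at -0.71. These coefficients are descriptions, since clusters share 1 library. Among 12305 other genes with at least 500 UMIs, the profile closest to Wnt3 was that of Gna14 (0.96), followed by Evx1os (0.94) and the streak homeobox gene Evx1 (0.93). For Wnt3a the closest were Dennd2c, Fst (follistatin) and Alcam at 0.84, 0.83 and 0.83, and for Wnt8a Fst, the pluripotency factor Nanog and Dlgap2, each at 0.84. Wnt2 lay closest to Klhl6 (0.94), Wnt5a (0.94) and the mesoderm marker Pcdh19 (0.93). Wnt2b lay closest to Tenm2, Evx1os and Chst7 (0.90, 0.90 and 0.89), Wnt5a to Cacna1c, Bmper and Pcsk5 (0.96, 0.95 and 0.94) and Wnt5b to Slc8a1, Prkacb and Gjc1 (0.97, 0.96 and 0.96). Wnt6 was closest to Htra1, Dusp14 and Esrrb (0.97 each), the last a trophoblast stem cell factor, and Wnt7b to 2410141K09Rik (0.99), with the trophoblast factor Elf5 also near (0.98). Wnt11 had the loosest neighbours, Utrn, Klhl28 and Ube2h (0.81, 0.74 and 0.74), over clusters that leave out the parietal endoderm-like nuclei, its leading class.

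Every ligand gene had at least 1 peak in its promoter, the window from 1000 bases upstream to 100 downstream of a start. The promoter peaks were at least 2-fold higher in the class leading in RNA for 3 of the 10 genes, Wnt6, Wnt8a and Wnt2, beside 6.93% of 15838 genes. This count was 1 with doublet calls kept and 1 with at least 2000 UMIs and peak counts per nucleus. At 1.5-fold it was 4 of 10 (17.6%) and at 3-fold 0 (2.78%). For 4 of 10 (Wnt2, Wnt5b, Wnt6 and Wnt8a) the class leading in RNA also led in promoter accessibility, beside 25.0% of those genes. Over 18 clusters the Spearman coefficient between RNA and promoter peaks had a median of 0.545 over the 10 ligand genes, while over 13433 genes with a promoter peak the median was 0.236 (quartiles -0.0485 and 0.503). Those 13433 genes are a smaller set than the 15838 above and were not matched to the ligand genes in level or in difference between classes. The coefficient of the ligand genes ran from 0.860 for Wnt5b, 0.837 for Wnt8a, 0.678 for Wnt2, 0.647 for Wnt3 and 0.579 for Wnt2b through 0.511 for Wnt6, 0.496 for Wnt3a, 0.472 for Wnt5a and 0.325 for Wnt11 to -0.434 for Wnt7b. The points of each coefficient share libraries and depth, and no p is given. The 26 parietal endoderm-like nuclei, which led in Wnt11 RNA, were too few to be among the 18 clusters. The Wnt11 coefficient therefore leaves out its leading class.

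**Figure D3:**
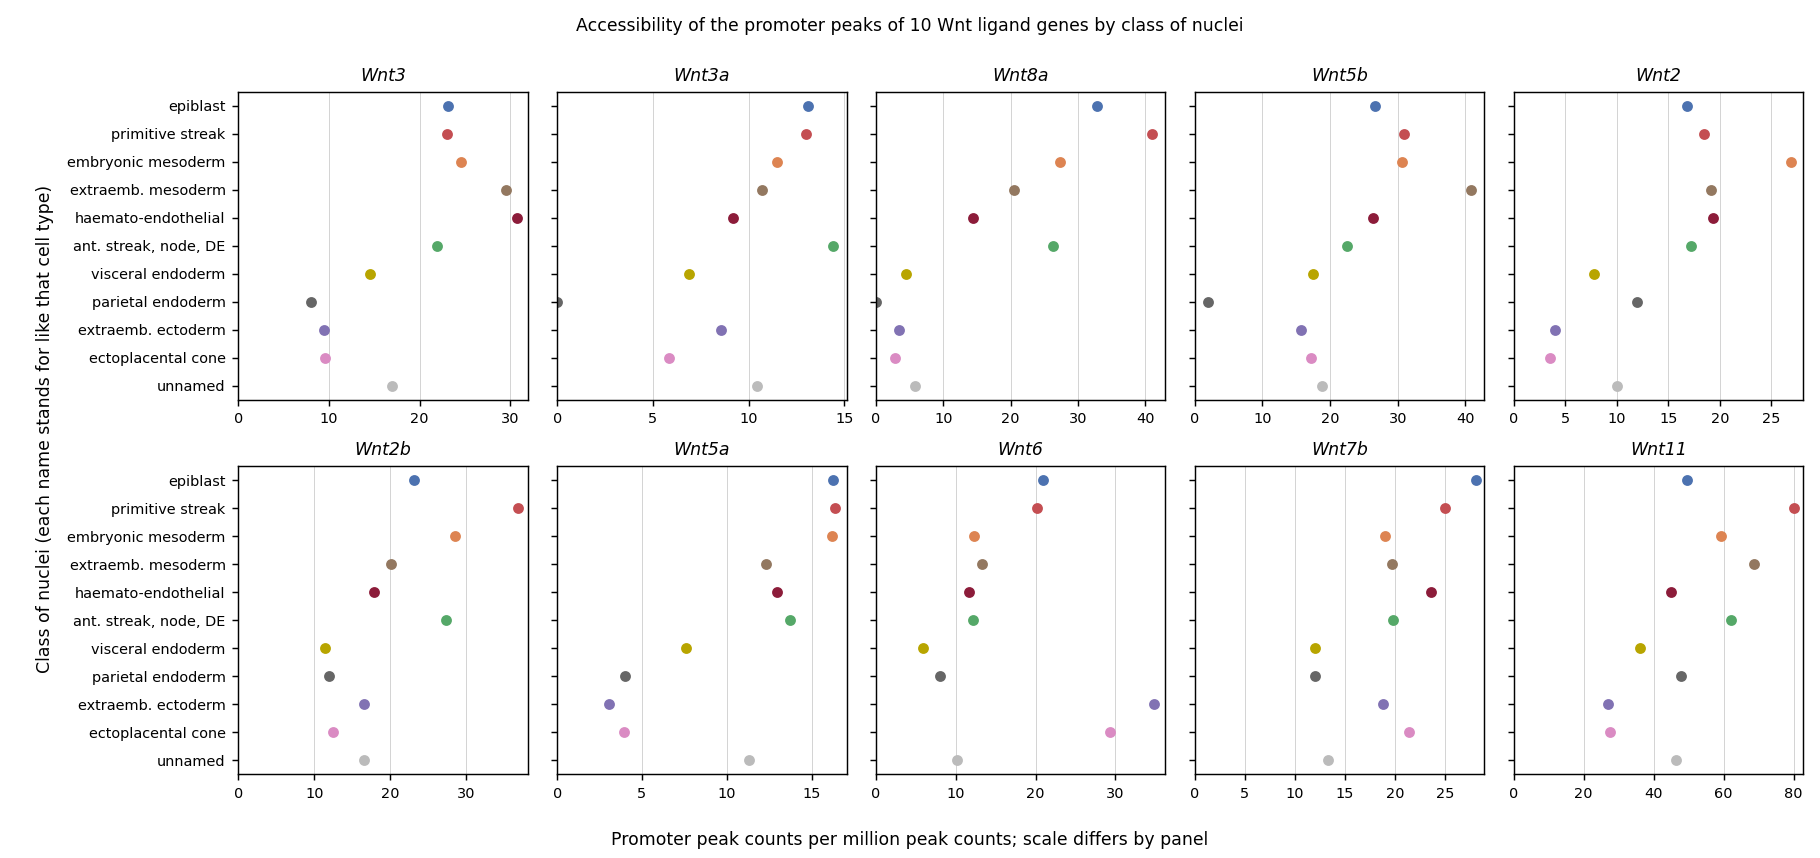
Accessibility of the promoter peaks of each ligand gene (x axis, CPM of peaks, scale set per panel) in the same classes (y axis), with 1 point per class sum. The range is narrow for Wnt7b, where the epiblast-like class leads at 28.1, and wide for Wnt8a, which is 40.9 in primitive streak-like nuclei, 2.76 in ectoplacental cone-like nuclei and 0 in the 26 parietal endoderm-like nuclei.

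Among the streak ligands, the Wnt8a promoter peak was 40.9 CPM of peaks in primitive streak-like nuclei, a fold of 2.06 (1.87 to 2.28). Epiblast-like nuclei followed at 32.8 (1.90-fold), with Wnt8a RNA at 1.02-fold over the class as a whole. The epiblast-like cluster of few peak counts per nucleus, at 6.97 CPM of RNA, also had the highest promoter level of the 18 clusters of at least 50 nuclei, 42.4. In the same unit embryonic mesoderm-like nuclei and the anterior class had 27.4 and 26.3. The promoter was at 4.53 in visceral endoderm-like nuclei, 3.40 in extraembryonic ectoderm-like nuclei and 2.76 in ectoplacental cone-like nuclei, where RNA was also low. It was at 20.4 in extraembryonic mesoderm-like and 14.4 in haemato-endothelial progenitor-like nuclei, where Wnt8a RNA was 0.497 and 1.17 CPM. The Wnt3 promoter peak (chr11:103773595-103774442) was 23.0 in primitive streak-like nuclei, a fold of 1.15, and the haemato-endothelial progenitor-like (30.8) and extraembryonic mesoderm-like classes (29.6) were above it. Epiblast-like nuclei had 23.1, where Wnt3 RNA was 18.6 CPM against 99.9 in streak-like nuclei. The 2 trophoblast-like classes had 9.48 and 9.56. The Wnt3a promoter peak (chr11:59290440-59291356), over the GC-rich sequence printed above, was 13.0 in streak-like, 13.1 in epiblast-like and 14.4 in anterior-class nuclei, a fold of 1.20 in the first beside 8.15 in RNA. With the window widened to 2000 bases on each side, which takes in 3 peaks, streak-like nuclei led for Wnt3a at 43.7 CPM of peaks, a fold of 1.97 (1.79 to 2.16), ahead of the anterior class at 30.2.

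In mesoderm, the Wnt2 promoter peaks were 26.9 CPM of peaks in embryonic mesoderm-like nuclei, a fold of 2.0 (1.79 to 2.24), and between 16.8 and 19.3 in epiblast-like, anterior-class, streak-like, extraembryonic mesoderm-like and haemato-endothelial progenitor-like nuclei. They were 3.99 and 3.53 in the 2 trophoblast-like classes. Of the 2 peaks, the one over the start (chr6:18029954-18030812), which covers the Wnt2 sequence printed above, was 2.30-fold higher in mesoderm-like nuclei (1.99 to 2.65) and the one further upstream 1.64-fold. The Wnt2b promoter peaks led in primitive streak-like nuclei at 36.9, with embryonic mesoderm-like nuclei at 28.5 (1.34-fold). The Wnt5a promoter peaks were 16.2 in embryonic mesoderm-like, 16.3 in epiblast-like and 16.4 in streak-like nuclei, and 12.3 in extraembryonic mesoderm-like nuclei, whose Wnt5a RNA was 66.1 CPM against 4.56 in epiblast-like nuclei. They were at 3.07 and 3.96 in the trophoblast-like classes. The Wnt11 promoter peaks led in streak-like nuclei at 80.0 (1.69-fold) and stood at 47.9 in the parietal endoderm-like class, from 24 counts.

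For Wnt5b the deposited annotation gave a start inside the gene and one at its far end, and their peaks had different profiles. Their sequences are printed because the peak at the first had the higher coefficient with the RNA. RefSeq lists a further internal start, not printed, between them.
Wnt5b, internal start, chr6:119449387-119449636, minus strand: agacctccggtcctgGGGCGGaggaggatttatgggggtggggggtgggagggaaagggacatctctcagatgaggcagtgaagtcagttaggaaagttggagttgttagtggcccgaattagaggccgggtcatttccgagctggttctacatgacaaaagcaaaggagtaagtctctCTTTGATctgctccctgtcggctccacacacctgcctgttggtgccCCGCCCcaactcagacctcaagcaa
Wnt5b, far start, chr6:119544348-119544597, minus strand: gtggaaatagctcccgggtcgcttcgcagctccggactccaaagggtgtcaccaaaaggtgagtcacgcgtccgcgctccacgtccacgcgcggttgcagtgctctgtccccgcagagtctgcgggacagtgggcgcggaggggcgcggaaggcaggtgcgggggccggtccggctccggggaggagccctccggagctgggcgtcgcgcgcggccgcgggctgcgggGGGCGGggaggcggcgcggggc
The peak over the internal start (chr6:119449083-119449708) was 28.1 CPM of peaks in extraembryonic mesoderm-like nuclei, a fold of 2.12 (1.75 to 2.56), 19.8 in streak-like, 19.3 in embryonic mesoderm-like and 15.1 in epiblast-like nuclei. It was between 7.51 and 10.3 in visceral endoderm-like, extraembryonic ectoderm-like, anterior-class and ectoplacental cone-like nuclei. Its Pearson coefficient with Wnt5b RNA over the clusters was 0.84. The peak over the far start (chr6:119543768-119544505) was 12.7 in extraembryonic mesoderm-like nuclei, a fold of 1.18 (0.874 to 1.57), with a coefficient of 0.46. The peak beside the further RefSeq start (chr6:119467333-119468213) had 666 counts in all, a fold of 0.927 in extraembryonic mesoderm-like nuclei (0.441 to 1.73) and a coefficient of -0.12. The upstream sequence of the internal start held CTTTGAT at position -71 and 2 GGGCGG, that of the far start 1 GGGCGG, and they were 55.6% and 75.2% G or C. Other annotated genes overlap the Wnt5b span, among them Fbxl14.

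For the trophoblast ligands, the Wnt6 promoter peak (chr1:74771169-74772030) was 34.8 CPM of peaks in extraembryonic ectoderm-like nuclei, a fold of 2.21 (1.94 to 2.50), and 29.4 in ectoplacental cone-like nuclei. Epiblast-like and streak-like nuclei had 20.9 and 20.2 although Wnt6 RNA there was 2.93 and 3.52 CPM, and visceral endoderm-like nuclei had 5.94. The Wnt7b promoter peaks did not follow its RNA. They were 28.1 in epiblast-like and 23.6 in haemato-endothelial progenitor-like nuclei and 18.8 in extraembryonic ectoderm-like nuclei, where the fold was 0.878. The peak at the inner start (chr15:85577525-85578414) had its highest level in epiblast-like nuclei, 2.01-fold above all others (1.78 to 2.27), in a class with 3.05 CPM of Wnt7b RNA.

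**Figure D4:**
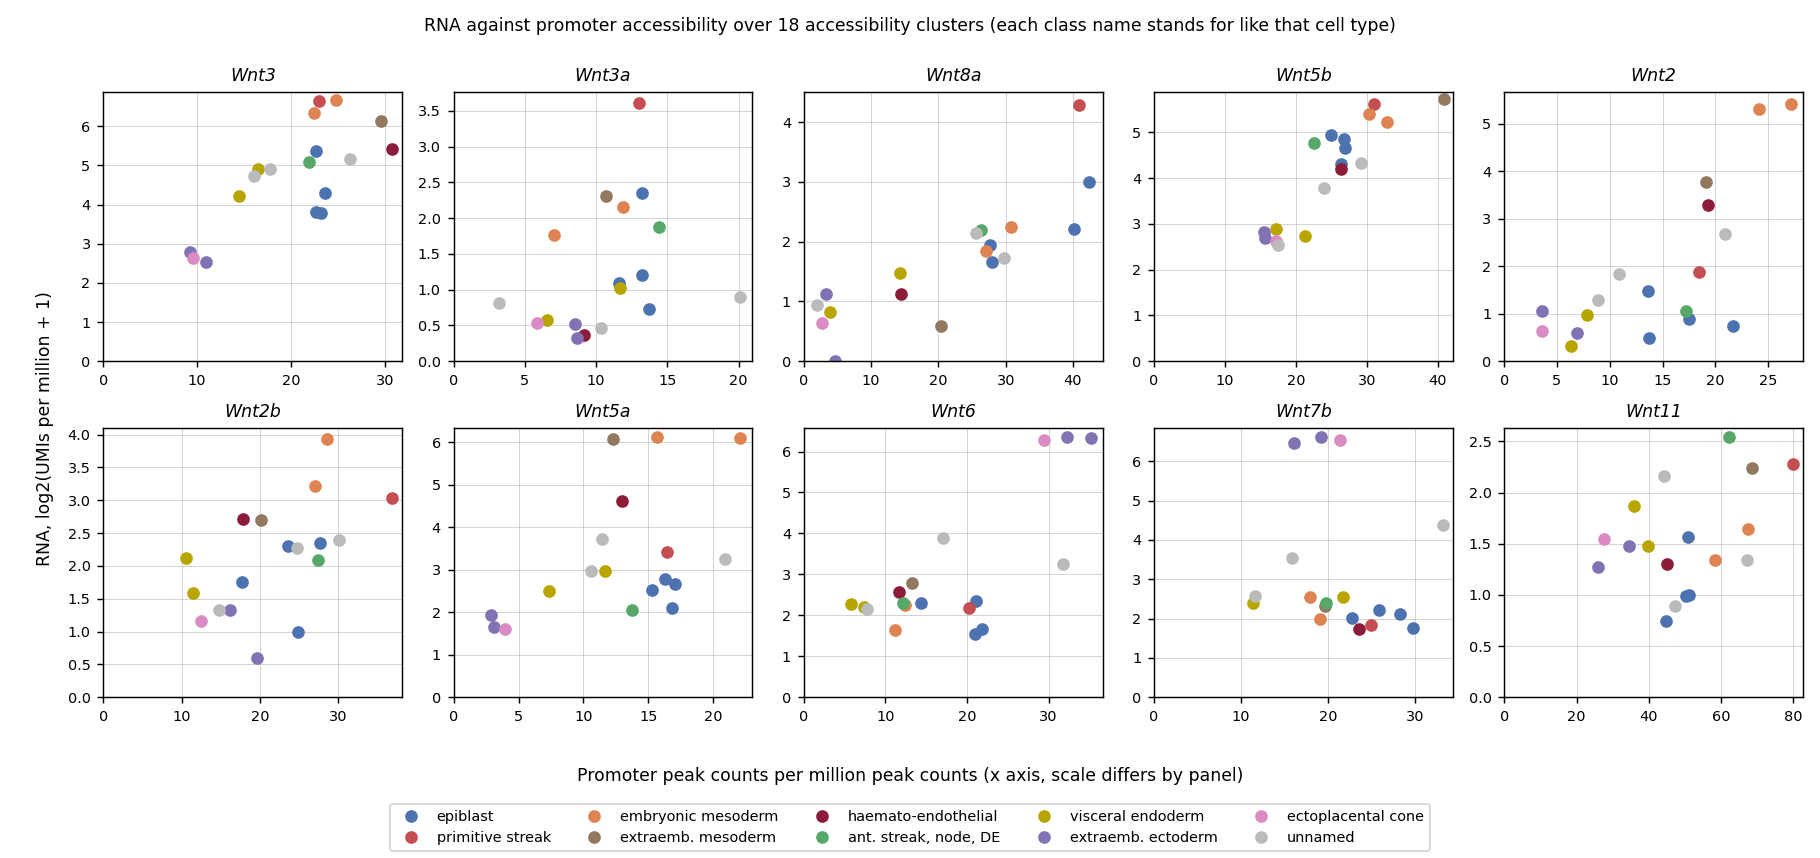
RNA of each ligand gene (y axis, log2 of CPM + 1) against its promoter accessibility (x axis, CPM of peaks) over 18 accessibility clusters of at least 50 nuclei, with 1 point per cluster coloured by class. Points climb to the right for Wnt5b and Wnt8a (Spearman 0.860 and 0.837), and for Wnt7b (-0.434) the 3 clusters with high RNA lie between 16.1 and 21.4 on a promoter axis that reaches 33.3.

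Beyond the promoters, peaks that overlap no promoter of any gene were summed over the 50 kb around the starts. With this sum, the class leading in RNA also led in accessibility for 8 of 10 genes, beside 25.5% of 17431 genes, and the sum was 2-fold higher there for 2 of 10 (Wnt7b 3.39-fold and Wnt2 3.17-fold), beside 11.6%. The median Spearman coefficient over the clusters was close to that of the promoter peaks, 0.567 against 0.545. The exceptions to the shared lead were Wnt3, whose sum led in embryonic mesoderm-like nuclei, and Wnt6, whose sum led in ectoplacental cone-like nuclei. For both genes the RNA ratio between that class and the one leading in RNA included 1. Some of the 8 leads were narrow. The Wnt5a sum was 66.3 CPM of peaks in embryonic mesoderm-like and 65.9 in streak-like nuclei. The Wnt11 lead rested on 94 counts in parietal endoderm-like nuclei (1.38-fold, 1.02 to 1.82). Single peaks of at least 200 counts, promoters included, were then compared in the class leading in RNA. Around Wnt7b 10 of 27 were 2-fold higher in extraembryonic ectoderm-like nuclei and around Wnt6 4 of 27, where 11.6% of all 171487 peaks were. Around Wnt2 4 of 5 passed in embryonic mesoderm-like nuclei, around Wnt2b 4 of 19 and around Wnt5a 3 of 16, beside 9.76%. In primitive streak-like nuclei it was 5 of 24 for Wnt3, 4 of 25 for Wnt3a and 4 of 22 for Wnt8a, beside 3.03%. It was 6 of 39 for Wnt5b in extraembryonic mesoderm-like nuclei (8.54%) and 4 of 26 for Wnt11 in parietal endoderm-like nuclei (14.8%). Peaks 2-fold lower in the same class were 1 for Wnt7b and 5 for Wnt6 (41.1% of all peaks), 0 for Wnt2, 2 for Wnt2b and 2 for Wnt5a (19.5%). They were 1 for Wnt3, 1 for Wnt3a and 6 for Wnt8a (18.3%), 6 for Wnt5b (24.3%) and 13 for Wnt11 (64.2%). The parietal endoderm-like class held only 0.22% of the peak counts of kept nuclei. The Wnt11 calls in both directions therefore rest on few counts per peak.

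**Figure D5:**
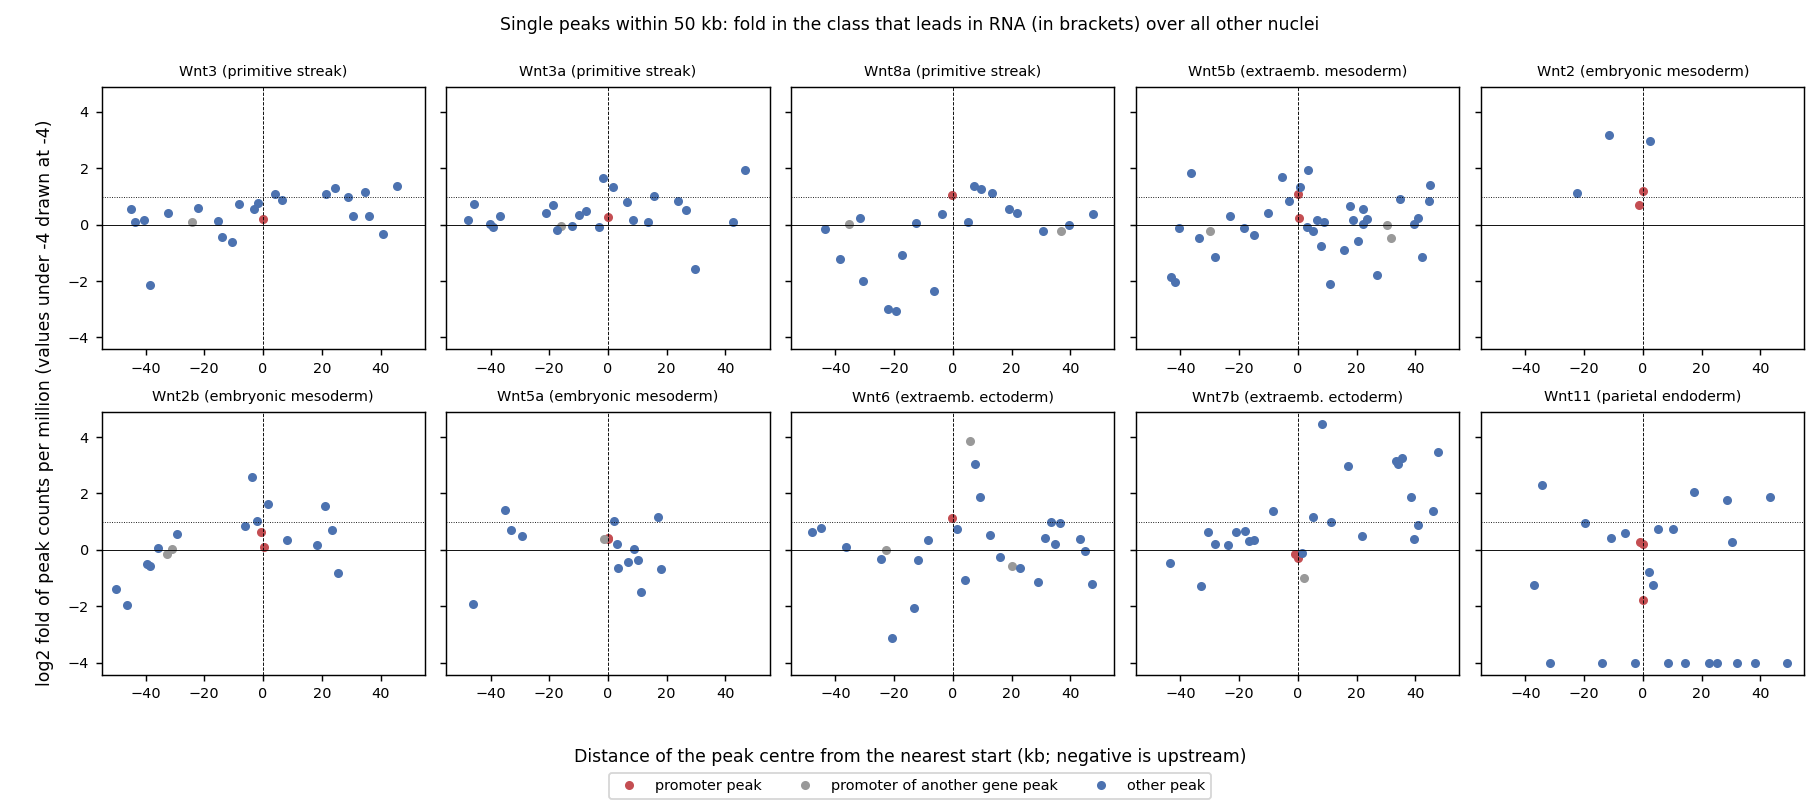
Single peaks of at least 200 counts around each ligand gene, by distance of the peak centre from the nearest start (x axis, kb, negative upstream) and log2 fold in the class that leads in RNA over all other nuclei (y axis, dotted line at 2-fold). Promoter peaks lie near or below the dotted line, and the highest points for Wnt7b, Wnt6, Wnt2 and Wnt2b lie away from the start.

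Profiles of peaks and RNA were compared over the clusters of at least 50 nuclei, which for Wnt11 leave out its leading class. For each gene the peak other than its promoter with the profile closest to the RNA was singled out, so its likeness is a description. For Wnt7b it was chr15:85569395-85570194, 8276 bases downstream of a start and inside the gene, with 35.1 CPM of peaks in extraembryonic ectoderm-like nuclei, 17.1 in ectoplacental cone-like nuclei and at most 0.783 in the other named classes (Pearson 0.95). Its fold in extraembryonic ectoderm-like nuclei was 22.2 (18.4 to 26.7), where the promoter peaks had 0.878. A further 5 peaks around Wnt7b were 7.90-fold to 11.0-fold higher in that class. No share of all peaks was taken at that level, and at 2-fold it was 11.6% in extraembryonic ectoderm-like nuclei. For Wnt6 the peak was chr1:74777380-74778132, 5864 bases downstream, inside Wnt6 and at the promoter of Gm29539, with 14 CPM of peaks in extraembryonic ectoderm-like, 6.98 in ectoplacental cone-like and at most 1.14 in other nuclei, a fold of 14.6 (11.1 to 19.1). The internal peaks of Wnt6 and Wnt7b were chosen for their likeness to the RNA, which favours few counts outside trophoblast-like nuclei. Their promoter peaks, not chosen in this way, were open in other classes as well. Over peaks of at least 200 counts at no promoter, the median fold in extraembryonic ectoderm-like nuclei was 1.71 for Wnt7b and 1.15 for Wnt6. The spans of Wnt6 and Wnt7b overlap those of Gm29539 and AU022754, and that of Wnt11 overlaps Gm33770, so their RNA carries the same uncertainty of strand as that of Wnt3. For Wnt2 the peak lay 2330 bases downstream (chr6:18027820-18028690) and was 7.74-fold higher in embryonic mesoderm-like nuclei (5.97 to 10.1). For Wnt2b it lay at -3637 bases (chr3:104965124-104965992), with 16.1 in embryonic mesoderm-like, 10.1 in streak-like and 1.84 in epiblast-like nuclei, a fold of 6.02 (5.06 to 7.15). For Wnt3 (chr11:103808321-103809215, inside the gene) and Wnt3a (chr11:59274506-59275371) the coefficients were both 0.87 and the folds in streak-like nuclei 2.23 (1.97 to 2.53) and 2.05 (1.65 to 2.53). Both peaks were higher still in embryonic mesoderm-like nuclei, at 2.86-fold and 3.50-fold, the first in a class with much Wnt3 RNA and the second in one with 3.22 CPM of Wnt3a. The Wnt8a peak, 9637 bases downstream, was 22.5 in streak-like and 22.3 in epiblast-like nuclei, folds of 2.39 and 3.91, and 6.45 or less in the other named classes. For Wnt5b the peak lay 686 bases downstream of the internal start, at 2.52-fold (2.06 to 3.05). The peaks for Wnt5a (chr14:28474953-28475862, in Erc2; 1.39-fold, 0.877 to 2.12) and Wnt11 (chr7:98840427-98841345; 0.587-fold, 0.160 to 1.5) did not differ in the leading class beyond counting error.

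The rest of the pathway was described by lists of genes, leaving aside those also used as markers. Of 9 other Wnt genes only 4 reached 50 UMIs, and all 4 were 2-fold higher in some class. Wnt4 was 8.70 CPM in extraembryonic mesoderm-like nuclei (7.66-fold, 5.15 to 11.1) and Wnt16 2.24 CPM there, while Wnt9b was 2.10 CPM in embryonic mesoderm-like nuclei and Wnt9a 1.99 CPM, from 8 UMIs, in extraembryonic mesoderm-like nuclei (2.33-fold, 0.983 to 4.74). Wnt9a was 2.43-fold higher in primitive streak-like nuclei. Among the 3 secretion genes, the carrier Wls was 938 CPM in extraembryonic mesoderm-like nuclei (3.81-fold) and the Wnt-inactivating enzyme Notum 9.45 CPM (6.66-fold). Porcn, which encodes porcupine, led at 3.05-fold in parietal endoderm-like nuclei from 9 UMIs. Of 15 receptor genes 11 were 2-fold higher in some class, led by Fzd8 in the anterior class (74.4 CPM, 5.94-fold), Fzd4 in visceral endoderm-like nuclei (31.3 CPM, 5.82-fold) and Fzd10 in haemato-endothelial progenitor-like nuclei (9.95 CPM, 4.97-fold). Of 7 measured genes of the R-spondin axis, which sets receptor levels, 6 were, led by Lgr5 in the anterior class (249 CPM, 15.8-fold), Rspo3 in haemato-endothelial progenitor-like nuclei (845 CPM, 8.54-fold) and Rnf43 in visceral endoderm-like nuclei (4.39-fold). Among 7 secreted inhibitors 5 were, led by Dkk2 (extraembryonic mesoderm-like, 5.14-fold, 7 UMIs), Wif1 (epiblast-like, 4.79-fold) and Frzb (embryonic mesoderm-like, 107 CPM, 4.37-fold). Of 10 nuclear effectors and targets 7 were. Sp8 was 4.85-fold higher in primitive streak-like nuclei, Nkd1 4.45-fold in extraembryonic mesoderm-like nuclei and Lef1 4.27-fold in embryonic mesoderm-like nuclei. The feedback target Axin2, named after its value was seen, was highest in streak-like nuclei at 106 CPM (2.59-fold, 2.43 to 2.75). In each list the share past 2-fold in any class is to be read beside 47.8% of all genes.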

How the data were processed

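Nuclear RNA and accessible chromatin were measured in the same nuclei, in 1 library each. The authors deposited whole-number counts of UMIs per gene and of accessibility counts per peak for every barcode, made with Cell Ranger ARC 2.0.0 on mm10, per the submitters' processing notes. The aligner, the peak caller and whether counting used the strand are not given in the sources used here. Of the peak values above 0, 86.4% were even, so intervals for peaks treat a pair of counts as 1 fragment.

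Nuclei were kept if mitochondrial UMIs made up at most 20%, and if they had at least 1000 UMIs, at least 1000 peak counts and at least 500 genes, and doublets called by Scrublet (expected rate 0.1, 1154 called, 7.52%) were removed. Accessibility was clustered (TF-IDF, 30 components, Leiden at resolution 1; scanpy 1.11.5, leidenalg 0.10.2) without the peaks near the ligand genes. A cluster took the name of the leading marker list if its mean log2 fold was at least 0.5 and at least 3 markers were raised 1.5-fold. A rival list blocked the name if it had more markers among the 10 leading genes of the cluster. With as many there, it needed at least 3 raised markers and a mean above 0.5 of the leading mean. A high mean of a rival list alone did not block a name. Clusters of low depth without a marker among those genes also stayed unnamed. This naming rule was set after the files were seen. UMIs or counts were summed per class, and with 1 library per assay no test was made. Shares of nuclei were repeated after thinning to 5000 UMIs, which left out 1609 of the kept nuclei: 372 epiblast-like, 167 visceral endoderm-like, 166 embryonic mesoderm-like, 111 extraembryonic ectoderm-like, 651 unnamed and 0 to 56 in each other class. A count of 0 was given an upper limit of 3 counts. Strand for promoters came from RefSeq tables, which matched 32158 gene IDs. For 5972 genes the strand stayed undecided, none of them a ligand gene, and their promoter window was 1000 bases to each side. Shares over all genes with promoter peaks include such genes. The RNA fold, its interval and the 2-fold call were tested on simulated counts for the streak-like class. Those counts followed the Poisson model of the intervals, with no added spread between nuclei. Peak folds, class names, leading classes and coefficients were not part of that test.

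The ligand genes, the pathway lists and the marker lists were chosen with earlier results of these data known. Genes named beyond the ligands were the 3 with the closest profile to each ligand and the 3 non-markers with the highest fold in each pathway list (all measured ones for the other Wnt genes), and peaks named were the promoter peaks and the most alike other peak. One gene that this rule names is not reported here.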

Additional observations from a re-analysis of the deposited data

How the results depend on the processing

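All 10 ligand genes had some class, not always the same one, with RNA 2-fold higher under the alternatives tried at that threshold: coarser and finer clusters, classes built from RNA, doublet calls kept, at least 2000 UMIs and peak counts, and, chosen after seeing the data, without the clusters of low peak counts and without the parietal endoderm-like class. The count of genes with promoter peaks 2-fold higher in the class leading in RNA, 3, was 1 with doublet calls kept, 1 with at least 2000 UMIs and peak counts, and 0 at 3-fold. It was 2 with coarser clusters, with estimated fragments, with promoters of 2000 bases to each side and with the other peaks within 50 kb. The count whose leading class was shared by RNA and promoter, 4, was 8 with the other peaks within 50 kb in place of the promoter, 6 with promoters of 2000 bases to each side, 5 with estimated fragments, and 3 with coarser clusters and with doublet calls kept. The cause was not tested beyond what each setting changes. The median Spearman coefficient ranged from 0.463 with doublet calls kept to 0.700 with promoters of 2000 bases to each side. Embryonic mesoderm-like nuclei led for Wnt3 in place of the streak-like class in 4 alternatives, and extraembryonic mesoderm-like nuclei led for Wnt5a in 2. The anterior class led for Wnt11 with coarser clusters and with doublet calls kept. Wnt2b and Wnt5b kept their leading class wherever it was recovered, with folds inside the interval. Wnt2, Wnt3a, Wnt6, Wnt7b and Wnt8a kept their leading class while the size of the fold moved beyond its interval under some alternatives. The fold ran from 17.0 to 25.1 for Wnt2, from 6.42 to 11.9 for Wnt3a and from 6.36 to 9.75 for Wnt8a. It ran from 8.79 to 14.4 for Wnt6 and from 9.38 to 17.1 for Wnt7b. The extraembryonic mesoderm-like class, which led for Wnt5b, was not recovered with coarser clusters, RNA classes or doublet calls kept. No paired analysis was possible because there were no replicates to pair, only 1 library per assay from the same nuclei. The value of Wnt11 in parietal endoderm-like nuclei rests on 13 UMIs in 26 nuclei. Intervals cover counting error only.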
